A study of Mus musculus with 6 samples.

Results

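The liver makes most of the proteins that circulate in blood plasma. Most of the 50 genes described here encode such proteins, of 3 groups: acute phase proteins, complement proteins and coagulation proteins. Others include C5ar1, a receptor on myeloid cells, Steap4, a metalloreductase, and the C1q genes, whose chains macrophages make. The 50 were chosen by gene symbol, as 16 acute phase genes, 3 fibrinogen genes, 18 complement genes and 13 coagulation genes. All 50 were found once each among the 23036 genes of the deposited table. Bulk liver poly-A RNA was sequenced from female mice that ate a western diet during 20 weeks, starting when they were 8 weeks old. The controls carried floxed Hkdc1 (HKDC1 fl/fl, called flox), and the other mice lacked Hkdc1, a hexokinase family gene, in the liver (HKDC1 LKO, called LKO). Every mouse of both groups ate the western diet, so a fatty diet is common to all 6 libraries, and the sources used here do not name the Cre line behind the knockout.

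In the acute phase response, interleukin-6 and interleukin-1 reach hepatocytes and, through STAT3, NF-kB and C/EBP transcription factors, raise secreted proteins such as serum amyloid A and haptoglobin, while others such as transthyretin go down. Complement is a cascade of proteases that tags particles with C3 fragments and ends in a membrane pore built from C5b to C9. Coagulation is a second protease cascade, in which thrombin turns fibrinogen into fibrin, and it is checked by antithrombin and protein C and reversed by plasmin.

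The genotype field of the labels gives 3 flox and 3 LKO libraries, but the title of flox 3 names LKO and the title of LKO 1 names flox. Library names below follow the genotype field. Each comparison was therefore read in 3 ways: by the genotype field (3 against 3), in the 4 libraries whose labels agree (flox 1 and 2 against LKO 2 and 3), and by the titles (flox 1, flox 2 and LKO 1 against flox 3, LKO 2 and LKO 3). These readings share libraries and are not independent of each other. Values are listed in the order of the titles. Log2 fold changes are LKO over flox with their standard error (SE), and a gene passed, and is said to have risen or fallen, where its edgeR p adjusted over all genes was under 0.05. Hkdc1 had 49, 22 and 10 counts in flox 1, flox 2 and LKO 1, and 1, 1 and 4 in flox 3, LKO 2 and LKO 3, so the library labelled flox 3 goes against its genotype field. Its log2 fold change was -3.51 ± 0.76 (SE, adjusted p 0.108, edgeR) by the titles and -2.12 ± 1.07 (SE, adjusted p 0.571, edgeR) by the genotype field. Total counts were 16166515 to 17366295 per library. Levels are given as CPM, the counts scaled by library size and by the TMM factor (trimmed mean of M values), which was 0.943 to 1.01 except in flox 1, at 1.14. Hepatocyte markers such as Alb were present in every library, and LKO 2 and LKO 3 also held adrenal cortex markers at 2576 and 271 CPM, summed over 8 genes, against at most 9.72 in the other libraries, where 2 to 5 of the 8 were at 0.

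Promoter sequences of 39 of the 50 genes were taken from RefSeq (GRCm38.p6, an earlier build than the GRCm39 of the deposited table). They are shown for 6 acute phase genes on which the results turn, namely the near copies Saa1 and Saa2, then Lcn2 and Hpx, and the pair Orm2 and Orm3, whose levels were ordered in opposite ways. Each is the 250 bases before the transcript start. The capitals mark 8 letters, TTGCNNAA, that C/EBP factors are known to recognise, on either strand.
Saa1 promoter, GRCm38.p6 chr7:46742981-46743230, minus strand: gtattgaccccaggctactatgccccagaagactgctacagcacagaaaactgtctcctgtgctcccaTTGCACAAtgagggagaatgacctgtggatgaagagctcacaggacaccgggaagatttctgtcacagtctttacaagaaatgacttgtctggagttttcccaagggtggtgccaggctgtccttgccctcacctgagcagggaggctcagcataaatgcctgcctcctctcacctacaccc
Saa2 promoter, GRCm38.p6 chr7:46751583-46751832, plus strand: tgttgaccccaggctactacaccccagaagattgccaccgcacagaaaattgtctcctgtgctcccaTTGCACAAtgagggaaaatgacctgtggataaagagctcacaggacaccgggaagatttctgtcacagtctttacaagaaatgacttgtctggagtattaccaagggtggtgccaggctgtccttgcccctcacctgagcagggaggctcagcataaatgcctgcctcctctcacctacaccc
Lcn2 promoter, GRCm38.p6 chr2:32387740-32387989, minus strand: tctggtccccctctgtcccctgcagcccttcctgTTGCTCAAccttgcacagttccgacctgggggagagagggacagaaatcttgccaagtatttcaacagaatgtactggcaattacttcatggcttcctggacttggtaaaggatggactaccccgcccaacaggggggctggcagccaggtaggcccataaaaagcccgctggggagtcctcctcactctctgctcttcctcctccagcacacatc
Hpx promoter, GRCm38.p6 chr7:105600117-105600366, minus strand: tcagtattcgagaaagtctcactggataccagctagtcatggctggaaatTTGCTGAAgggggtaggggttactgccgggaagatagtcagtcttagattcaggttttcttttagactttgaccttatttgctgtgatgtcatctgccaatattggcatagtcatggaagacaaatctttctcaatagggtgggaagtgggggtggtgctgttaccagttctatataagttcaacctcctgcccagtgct
Orm2 promoter, GRCm38.p6 chr4:63362199-63362448, plus strand: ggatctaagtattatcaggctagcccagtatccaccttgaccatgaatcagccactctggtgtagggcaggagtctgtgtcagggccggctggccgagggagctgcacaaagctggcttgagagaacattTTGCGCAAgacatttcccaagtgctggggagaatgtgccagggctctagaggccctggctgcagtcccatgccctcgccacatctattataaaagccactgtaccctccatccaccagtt
Orm3 promoter, GRCm38.p6 chr4:63355908-63356157, plus strand: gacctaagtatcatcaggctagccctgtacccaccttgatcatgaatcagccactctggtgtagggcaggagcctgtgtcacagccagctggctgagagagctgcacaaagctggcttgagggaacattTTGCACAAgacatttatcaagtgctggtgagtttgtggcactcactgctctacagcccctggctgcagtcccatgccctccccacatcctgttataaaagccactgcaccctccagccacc
The window searched ran from 250 bases before to 50 bases after the start. TTGCNNAA was found in 8 of 13 acute phase promoters, 2 of 3 fibrinogen promoters, 4 of 13 complement promoters and 3 of 10 coagulation promoters, against 10.8% of 32851 promoters of the same length. It read TTGCACAA in Saa1, Saa2 and Orm3, TTGCGCAA in Orm2, TTGCTCAA in Lcn2 and TTGCTGAA in Hpx. A STAT motif, TTCNNNGAA, was found in 3 of 13 acute phase and 2 of 3 fibrinogen promoters (8.30% of all promoters) and an NF-kB motif, GGGA and CC with 4 free bases between them, in 3 of 13 acute phase promoters (20.7% of all). None of the 6 promoters shown held either of these. The 6 do not stand for all genes lower in the libraries titled LKO. Of such genes not shown, Steap4 held TTGCNNAA, the STAT motif and the NF-kB motif. Il1rn held the NF-kB motif and no TTGCNNAA. Over these windows the Saa1 and Saa2 promoters were 95.3% identical and the Orm2 and Orm3 promoters 86.6%. A match describes letters only and is not a measured binding site.

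The 50 genes together held 4.91% to 5.69% of all counts in a library. This share was 5.39%, 5.32% and 5.69% in flox 1, flox 2 and LKO 1, and 4.91%, 5.27% and 5.17% in flox 3, LKO 2 and LKO 3. Counting error on these shares was small, with 95% Wilson intervals of at most 0.0109 percentage points to either side. C3, Hpx and Hp held the most, ranking 6, 10 and 13 among all genes by summed counts. The acute phase genes held 2.03%, 1.88% and 1.94% in flox 1, flox 2 and LKO 1, and 1.36%, 1.38% and 1.43% in flox 3, LKO 2 and LKO 3. All 3 libraries titled flox were above all 3 titled LKO. Hp and Hpx made up most of this sum, at 104538 and 137510 of 343954 counts in flox 1. In flox 3 they had 56361 and 76858 of 221598. The order of the sum is therefore mainly that of these 2 genes and need not hold for the rest of the group. By the titles the acute phase share averaged 1.95% ± 0.0754 in flox and 1.39% ± 0.0373 in LKO (SD, n = 3 each), and by the genotype field 1.76% ± 0.355 and 1.59% ± 0.311 with overlapping groups. Coagulation genes were ordered the other way by the titles, at 1.06%, 1.12% and 1.24% in flox 1, flox 2 and LKO 1, and 1.26%, 1.35% and 1.37% in flox 3, LKO 2 and LKO 3. Those shares averaged 1.14% ± 0.0885 in flox and 1.33% ± 0.0582 in LKO by the titles (SD, n = 3 each), with no overlap, and overlapped by the genotype field. Complement genes held 1.30% to 1.51% and the 3 fibrinogen genes 0.842% to 1.04%, and both overlapped by the titles. By the genotype field the complement share did not overlap, at 1.38% ± 0.0730 in flox and 1.48% ± 0.0292 in LKO (SD, n = 3 each). In the agreeing libraries it was higher in LKO by 0.0696 percentage points, also without overlap. C3 made up most of the complement counts, at 152803 of 244731 in flox 1 and 158058 of 243319 in LKO 3. These differences are therefore mainly those of C3 and need not hold for the other complement genes. The fibrinogen share overlapped in all 3 readings. Sums over chosen genes were given no test. In bulk liver, fewer cells of a type and less RNA per cell cannot be told apart.

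**Figure D1:**
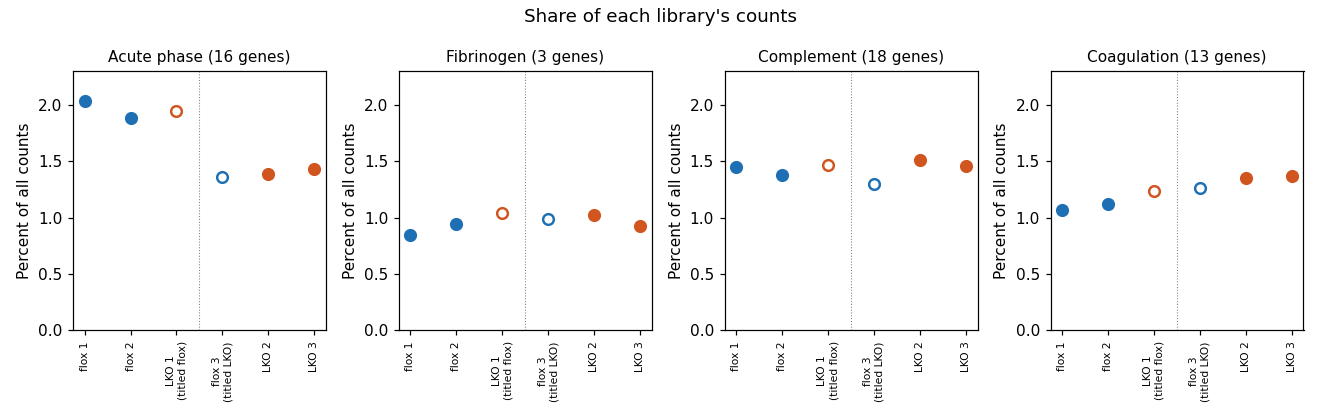
Percent of each library's counts held by each gene group (y axis), 1 point per library (x axis), blue for the genotype field flox and orange for LKO. Open points are the 2 libraries whose title disagrees, and a dotted line divides the titles. Acute phase points are 1.88% to 2.03% left of the line and 1.36% to 1.43% right of it.

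Serum amyloid A and lipocalin 2 showed the largest differences by the titles among the acute phase genes. Saa1 (ENSMUSG00000074115, GRCm39 chromosome 7, 46389921 to 46392404, minus strand), a serum amyloid A carried on HDL, was at 276.5, 238 and 189.6 CPM across flox 1, flox 2 and LKO 1, against 89.9, 67.7 and 111 CPM across flox 3, LKO 2 and LKO 3. Its lowest level among the libraries titled flox was above its highest among those titled LKO. By the titles Saa1 fell, with means of 235 ± 43.5 CPM over the flox libraries and 89.5 ± 21.6 CPM over the LKO libraries (SD, n = 3 each) and a log2 fold change of -1.40 ± 0.21 (SE, adjusted p 0.0453, edgeR). In the 4 agreeing libraries it did not pass, with a log2 fold change of -1.52 ± 0.26 (SE, adjusted p 0.0751, edgeR). Saa2 (ENSMUSG00000057465, GRCm39 chromosome 7, 46401214 to 46403737, plus strand), its neighbour and near copy, was at 186, 151 and 110.3 CPM across flox 1, flox 2 and LKO 1, against 50.9, 33.1 and 63.0 CPM across flox 3, LKO 2 and LKO 3. The libraries fell in the same order of groups, without overlap by the titles. Saa2 did not pass, with log2 fold changes of -1.81 ± 0.32 (SE, adjusted p 0.0764, edgeR) in the agreeing libraries and -1.61 ± 0.27 (SE, adjusted p 0.0626, edgeR) by the titles. Saa1 and Saa2 share much of their sequence: of the 50-base stretches in annotated Saa1 transcripts, 31.5% also occur in another gene, nearly all in Saa2. Reads could therefore be split between the copies, and each value is uncertain. On the FPKM scale, which divides counts by gene length and library total, the ratio of Saa1 to Saa2 was 1.51 in flox 1 and 1.61 in flox 2, and 1.75 to 2.08 in the other 4 libraries. Saa3, the form made mostly by macrophages and fat in mice, was at 15.2, 9.09 and 14.2 CPM across flox 1, flox 2 and LKO 1, against 8.05, 6.69 and 15.5 CPM across flox 3, LKO 2 and LKO 3, and the groups overlapped in every reading.

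Lcn2 (ENSMUSG00000026822, GRCm39 chromosome 2, 32274645 to 32278264, minus strand), encoding lipocalin 2, which binds bacterial siderophores, was at 265, 215 and 179.6 CPM across flox 1, flox 2 and LKO 1, against 85.0, 81.1 and 85.7 CPM across flox 3, LKO 2 and LKO 3. The 3 libraries titled LKO lay within a narrow range, below all 3 titled flox. Lcn2 fell in the agreeing libraries, with means of 239.8 ± 35.2 CPM over the flox libraries and 83.4 ± 3.29 CPM over the LKO libraries (SD, n = 2 each) and a log2 fold change of -1.52 ± 0.17 (SE, adjusted p 0.0333, edgeR). It also fell by the titles, with a log2 fold change of -1.39 ± 0.16 (SE, adjusted p 0.0219, edgeR). By the genotype field its log2 fold change was -0.70 ± 0.46 (SE, adjusted p 0.625, edgeR), and it did not pass. Of these fits, the agreeing libraries lost the call without flox 1, and the titles lost it without any 1 of flox 2, flox 3, LKO 2 or LKO 3 (log2 fold changes of -1.37 to -1.42). The Saa1 call by the titles was lost without any 1 library other than LKO 1, at log2 fold changes of -1.23 to -1.58. No 50-base stretch of Lcn2 transcripts (0) occurs in another annotated gene. Neutrophils also make Lcn2, and 10 neutrophil markers summed to 159, 29.7 and 32.5 CPM across flox 1, flox 2 and LKO 1, against 43.4, 69.9 and 18.6 CPM across flox 3, LKO 2 and LKO 3. Those groups overlapped by the titles, with 1 of the 10 at 0 in flox 2 and in LKO 1. Stellate cell and fibroblast markers, 9 genes with none at 0, were ordered like Lcn2, summing to 1283, 949 and 541.4 CPM across flox 1, flox 2 and LKO 1, against 476, 409 and 369 CPM across flox 3, LKO 2 and LKO 3. Of these, Col1a1, Col3a1, Col1a2 and Lum fell in the agreeing libraries and 0 of 9 passed by the titles. Over all genes, 0.492% were called lower in the agreeing libraries and 0.300% by the titles. DESeq2 called 6 of the 9 in the agreeing libraries and 4 by the titles, all lower, and limma-voom 3 and 0. Cholangiocyte markers, 8 genes, summed to 48.1, 26.0 and 16.3 CPM across flox 1, flox 2 and LKO 1, against 11.4, 7.35 and 7.98 CPM across flox 3, LKO 2 and LKO 3, with 1 at 0 in LKO 1 and in LKO 2. The part of these markers in the results for Saa1, Saa2 and Lcn2 was not tested.

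Haptoglobin and hemopexin, the plasma carriers of free haemoglobin and haem, were the most abundant of the acute phase genes, with median levels of 3049 and 3750.1 FPKM. Hp (ENSMUSG00000031722, GRCm39 chromosome 8, 110301760 to 110305804, minus strand) was at 5406, 6259 and 6419 CPM across flox 1, flox 2 and LKO 1, against 3657, 3338 and 3829 CPM across flox 3, LKO 2 and LKO 3. Its groups were apart by the titles and by the agreeing libraries. Hp did not pass, with log2 fold changes of -0.74 ± 0.16 (SE, adjusted p 0.105, edgeR) by the titles and -0.70 ± 0.27 (SE, adjusted p 0.274, edgeR) in the agreeing libraries. By the genotype field the log2 fold change was -0.17, and LKO 1 had the highest level of all. Hpx (ENSMUSG00000030895, GRCm39 chromosome 7, 105240820 to 105249344, minus strand) was at 7111, 6928 and 6719.8 CPM across flox 1, flox 2 and LKO 1, against 4987, 4628 and 4907 CPM across flox 3, LKO 2 and LKO 3. The same groups were apart, with a log2 fold change of -0.52 ± 0.15 (SE, adjusted p 0.18, edgeR) by the titles that did not pass. Of the counts of the 50 genes, Hp held 11.0% to 11.8% in the libraries titled flox and 6.40% to 7.03% in those titled LKO, and Hpx 11.5% to 15.1% and 8.88% to 9.59%.

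The 3 orosomucoid genes, which encode alpha-1-acid glycoproteins, differed from each other. Orm1, the most abundant, was at 522, 571 and 726 CPM across flox 1, flox 2 and LKO 1, against 583, 537.5 and 640.2 CPM across flox 3, LKO 2 and LKO 3, and its groups overlapped in all 3 readings. Orm2 (ENSMUSG00000061540, GRCm39 chromosome 4, 63280686 to 63284115, plus strand) was at 58.0, 73.0 and 80.4 CPM across flox 1, flox 2 and LKO 1, against 25.6, 23.8 and 45.0 CPM across flox 3, LKO 2 and LKO 3. It was lower in every library titled LKO and did not pass, with a log2 fold change of -1.17 ± 0.25 (SE, adjusted p 0.105, edgeR) by the titles. Orm3 (ENSMUSG00000028359, GRCm39 chromosome 4, 63274399 to 63277748, plus strand) was ordered the other way, at 7.34, 9.09 and 18.0 CPM across flox 1, flox 2 and LKO 1, against 27.3, 13.7 and 37.5 CPM across flox 3, LKO 2 and LKO 3. The 2 agreeing flox libraries were the lowest, LKO 2 lay below LKO 1, and the log2 fold change of 1.64 ± 0.46 (SE, adjusted p 0.172, edgeR) in the agreeing libraries did not pass. The ratio of Orm2 to Orm3 FPKM was 7.87, 8.01 and 4.45 in flox 1, flox 2 and LKO 1, and 0.933, 1.72 and 1.20 in flox 3, LKO 2 and LKO 3. Orm2 shares 22.7% of its 50-base stretches with other genes, mostly Orm1, and Orm3 shares 3.59%, so the level of Orm2 is less certain than that of Orm3.

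**Figure D2:**
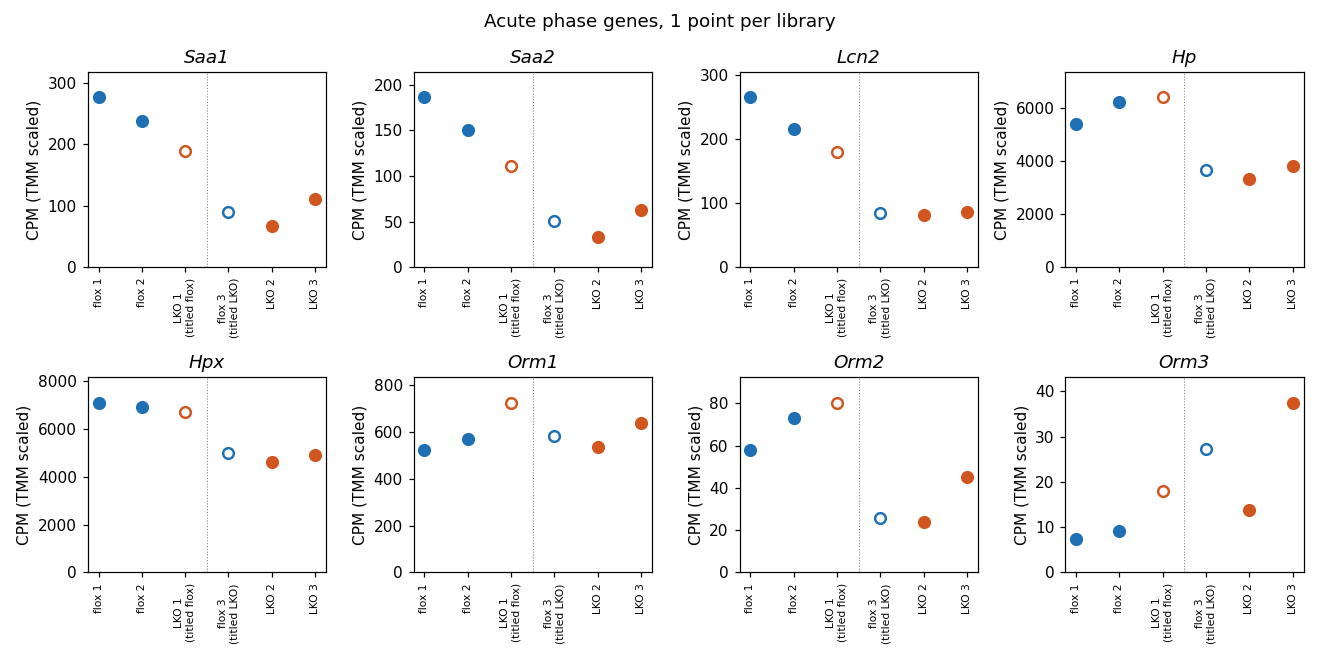
Level in CPM (y axis, from 0) of 8 acute phase genes in each library (x axis), blue for the genotype field flox and orange for LKO, with open points where the title disagrees and a dotted line dividing the titles. Saa1, Saa2, Lcn2, Hp, Hpx and Orm2 lie higher left of the line, Orm1 overlaps, and Orm3 is highest in LKO 3 at 37.5 CPM.

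Among the other acute phase genes, Steap4, a metalloreductase, and Il1rn, the interleukin-1 receptor antagonist, were also lower in each library titled LKO. Steap4 was at 323, 257 and 246 CPM across flox 1, flox 2 and LKO 1, against 221, 148.5 and 173 CPM across flox 3, LKO 2 and LKO 3. Il1rn was at 19.5, 14.9 and 14.9 CPM across flox 1, flox 2 and LKO 1, against 10.1, 7.78 and 10.8 CPM across flox 3, LKO 2 and LKO 3. Neither passed by the titles, with log2 fold changes of -0.61 ± 0.18 (SE, adjusted p 0.186, edgeR) and -0.79 ± 0.18 (SE, adjusted p 0.121, edgeR). The other 5 lay nearer 0 by the titles, at log2 fold changes of -0.17 for the lipopolysaccharide-binding protein gene Lbp, 0.06 for the serum amyloid P gene Apcs, -0.12 for the protease inhibitor gene Serpina3n, and 0.07 and 0.29 for the inter-alpha-trypsin inhibitor chains Itih3 and Itih4. None of them passed (edgeR adjusted p 0.584 to 0.91).

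Of the 16 acute phase genes, all 16 were tested, and by the titles 2 fell, 0 rose and 14 did not pass (edgeR adjusted p 0.0626 to 0.92). Over all 14310 genes tested, 0.300% were called lower by this rule and 0.0559% higher. The median log2 fold change was -0.44, against 0.00 over all genes tested. Groups of CPM values did not overlap for 8 acute phase genes lower in LKO and 0 higher, where 10.4% of all genes did so lower and 8.61% higher. DESeq2 called 8 of the 16 by the titles, all lower, and limma-voom 1. In the agreeing libraries 1 fell (Lcn2), 0 rose and 15 did not pass, with 0.492% of 14625 genes called lower and 0.130% higher. The median there was -0.34, and groups did not overlap for 8 genes lower and 3 higher, where 25.3% of all genes did so lower and 24.0% higher. DESeq2 called 7 there, 6 lower and 1 higher, and limma-voom 1. By the genotype field 0 passed by edgeR, as for all genes (0%), 0 by DESeq2 and 0 by limma-voom. An unadjusted edgeR p under 0.05 was found for 1 of the 16, and for 1267 of all 14310 genes. There the median was -0.02, and 1 gene, Itih3, had groups that did not overlap, higher in LKO, where 7.47% of all genes did so higher and 6.87% lower.

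Fibrinogen, the substrate of thrombin, is itself an acute phase protein. Its genes did not show the order of Saa1 and Hp. Fga, Fgb and Fgg encode its 3 chains and lie together on chromosome 3. Fga was at 2559, 3609 and 4172 CPM across flox 1, flox 2 and LKO 1, against 4079.6, 3941 and 3789.7 CPM across flox 3, LKO 2 and LKO 3. Flox 1 was the lowest library for each of the 3 genes, at 2839 CPM for Fgb and 1968 CPM for Fgg, where the others were at 3297 to 3739 and 2392 to 2882 CPM. Their log2 fold changes were 0.09 to 0.19 by the titles and 0.13 to 0.33 in the agreeing libraries, and 0 of 3 passed (edgeR adjusted p 0.736 to 0.854 and 0.595 to 0.847). Per length the 3 chains were near each other, with median levels of 1239, 912 and 1207 FPKM for Fga, Fgb and Fgg.

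All 13 coagulation genes had log2 fold changes above 0 by the titles and in the agreeing libraries, apart from F5 (both) and F9 (agreeing libraries) when library size alone was used for scaling, and 0 of 13 passed by edgeR. With TMM scaling, 50.7% of all genes tested were above 0 by the titles and 50.6% in the agreeing libraries. Factor VII, which starts the extrinsic pathway together with tissue factor, showed the largest difference. F7 (ENSMUSG00000031443, GRCm39 chromosome 8, 13076034 to 13085809, plus strand) was at 84.2, 86.4 and 124 CPM across flox 1, flox 2 and LKO 1, against 139.8, 160.4 and 186 CPM across flox 3, LKO 2 and LKO 3. Both agreeing flox libraries were lowest and both agreeing LKO libraries highest, with 85.3 ± 1.54 CPM over the flox libraries and 173 ± 18.1 CPM over the LKO libraries (SD, n = 2 each). Its log2 fold changes of 1.02 ± 0.15 (SE, adjusted p 0.0584, edgeR) in the agreeing libraries and 0.72 ± 0.18 (SE, adjusted p 0.148, edgeR) by the titles did not pass. F10, the neighbouring gene of factor X on chromosome 8, was at 315.5, 368 and 453 CPM across flox 1, flox 2 and LKO 1, against 470.5, 467 and 552 CPM across flox 3, LKO 2 and LKO 3. Its log2 fold change was 0.58 ± 0.19 (SE, adjusted p 0.213, edgeR) in the agreeing libraries. Prothrombin (F2) and factors V, IX and XI (F5, F9 and F11) had log2 fold changes of 0.34, 0.06, 0.10 and 0.62 there. F11 was at 78.1 CPM in LKO 2 and at 38.4 to 49.5 CPM in the rest, so its value rests on LKO 2: without LKO 2 it was 0.12.

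Inhibitors of clotting and genes of fibrinolysis lay on the same side. Serpinf2, encoding the plasmin inhibitor alpha-2-antiplasmin, was at 520.0, 550.0 and 815 CPM across flox 1, flox 2 and LKO 1, against 708, 1024 and 865 CPM across flox 3, LKO 2 and LKO 3. All libraries labelled LKO by the genotype field were above all labelled flox, as for 5 of the 50 genes and 7.47% of all genes tested. Its log2 fold changes were 0.61 ± 0.17 (SE, adjusted p 0.554, edgeR) by the genotype field and 0.82 ± 0.19 (SE, adjusted p 0.131, edgeR) in the agreeing libraries, and it did not pass. Plg, encoding plasminogen, was at 1228, 1509 and 1856 CPM across flox 1, flox 2 and LKO 1, against 1968, 2258 and 2202 CPM across flox 3, LKO 2 and LKO 3. Its groups were apart by the titles, with a log2 fold change of 0.48 ± 0.18 (SE, adjusted p 0.286, edgeR). Apoh, encoding beta-2-glycoprotein I, was at 1014, 1374 and 1542 CPM across flox 1, flox 2 and LKO 1, against 1702, 1672 and 1932 CPM across flox 3, LKO 2 and LKO 3, also apart by the titles, with a log2 fold change of 0.43 ± 0.18 (SE, adjusted p 0.341, edgeR). Antithrombin (Serpinc1), heparin cofactor II (Serpind1), protein C (Proc) and kininogen 1 (Kng1) had log2 fold changes of 0.26, 0.26, 0.31 and 0.17 by the titles. Kng1 shares 17.2% of its 50-base stretches with Kng2, and Serpinc1 overlaps Zbtb37 on the other strand, so these 2 are uncertain.

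Each of the 13 was tested, and 0 passed by edgeR in any reading. By the titles 4 were under an unadjusted p of 0.05, as were 1989 of all 14310 genes, and DESeq2 called 1 and limma-voom 0. In the agreeing libraries 6 were under it, as were 2430 of all 14625 genes, and DESeq2 called 4 and limma-voom 0. By the genotype field 2 were under it, as were 1267 of all 14310 genes, and DESeq2 and limma-voom called 0 and 0. The median log2 fold change was 0.48 in the agreeing libraries, 0.31 by the titles and 0.30 by the genotype field. Groups were apart and higher in LKO for 12, 7 and 1 of the 13 in these readings, where 24.0%, 8.61% and 7.47% of all genes were. With library size alone in place of TMM scaling the agreeing median was 0.341 while that of all genes moved to -0.131, a setting chosen after the data were seen. The sum of hepatocyte markers was also higher in the libraries titled LKO: the 10 summed to 71752, 84515 and 89139.7 CPM across flox 1, flox 2 and LKO 1, against 110054, 98929.6 and 107970.0 CPM across flox 3, LKO 2 and LKO 3. None was at 0 in any library. Alb made up most of this sum, at 48664 CPM in flox 1 and 71766 CPM in flox 3, so its order need not hold for the others. By the titles 9 of 10 had log2 fold changes above 0, as did 50.7% of all genes, and 0 passed by edgeR. Groups were apart and higher for 3 and overlapped for 7, where 8.61% of all genes were apart and higher. The part of these markers in the result was not tested.

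Complement genes showed no common direction. C3, the central component, had the highest median level of the complement genes, 1735 FPKM, and was at 7902, 8370.2 and 9065 CPM across flox 1, flox 2 and LKO 1, against 8283, 9049 and 10014 CPM across flox 3, LKO 2 and LKO 3. Its log2 fold changes were 0.23 in the agreeing libraries and 0.11 by the titles, and it did not pass. C4b, which feeds the classical and lectin pathways, was at 1636, 2091 and 2820.4 CPM across flox 1, flox 2 and LKO 1, against 2643, 2424 and 2392 CPM across flox 3, LKO 2 and LKO 3. C4b shares 34.6% of its 50-base stretches with C4a and is uncertain. Cfi, encoding the factor I protease that cleaves C3b, had log2 fold changes of 0.10 and 0.04 in these readings. Cfb, encoding factor B of the alternative pathway, had only 103 to 129 counts per library. In GENCODE M21 the gene Gm20547 covers 99.4% of the Cfb span on the same strand and holds 73.0% of its 50-base stretches, so the counts of Cfb here need not stand for its transcript level. Gm20547 was not analysed here.

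The terminal components differed from each other and between libraries. C9, the subunit that polymerises into the pore, was at 287.5, 337 and 284.5 CPM across flox 1, flox 2 and LKO 1, against 172, 223 and 204 CPM across flox 3, LKO 2 and LKO 3. Its groups were apart, lower in LKO, by the titles and in the agreeing libraries, with log2 fold changes of -0.60 ± 0.14 (SE, adjusted p 0.121, edgeR) and -0.54 ± 0.17 (SE, adjusted p 0.202, edgeR) that did not pass. C8a and C8b encode 2 chains of C8 and lie side by side on chromosome 4. C8a was at 315, 263 and 228 CPM across flox 1, flox 2 and LKO 1, against 123, 367 and 167 CPM across flox 3, LKO 2 and LKO 3. C8b was at 66.8, 50.9 and 42.5 CPM across flox 1, flox 2 and LKO 1, against 33.5, 118 and 36.7 CPM across flox 3, LKO 2 and LKO 3. LKO 2 was the highest library for both and flox 3 the lowest, and neither had groups apart in any reading. C8b moved from 0.40 in the agreeing libraries to -0.67 without LKO 2. That library had the highest sums of adrenal cortex, adipocyte, and Kupffer cell and macrophage markers. The part of these markers in the level of C8b was not tested. C6 was highest in flox 1 at 75.0 CPM and 27.8 to 53.5 CPM elsewhere.

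The components that start the cascade were mixed. C1qa, C1qb and C1qc, the C1q chains that macrophages make, had log2 fold changes of -0.25, -0.35 and -0.30 by the titles, with overlapping groups. C1qb was at 219, 169 and 158 CPM across flox 1, flox 2 and LKO 1, against 142, 170.1 and 118 CPM across flox 3, LKO 2 and LKO 3. The 3 chains kept close proportions, with C1qc at 0.476 to 0.513 of C1qb FPKM. Markers of Kupffer cells and macrophages, 10 genes with none at 0 in any library, summed to 1406, 1178 and 1117 CPM across flox 1, flox 2 and LKO 1, against 1133, 1450.2 and 915.5 CPM across flox 3, LKO 2 and LKO 3. Like C1qb, they were lowest in LKO 3, and their part in these levels was not tested. The C1 proteases made by hepatocytes, C1ra and C1s1, had log2 fold changes of 0.30 and -0.10. C1ra was at 183, 191 and 186.5 CPM across flox 1, flox 2 and LKO 1, against 230.5, 235 and 224 CPM across flox 3, LKO 2 and LKO 3, with groups apart by the titles, and both share many stretches with their copies C1rb and C1s2 (50.8% and 35.1% with any gene), so they are uncertain. Mannose-binding lectins start the lectin pathway, and Mbl1 and Mbl2 were higher in all 3 libraries labelled LKO by the genotype field. Mbl2 was at 294, 375 and 494 CPM across flox 1, flox 2 and LKO 1, against 403, 446 and 486 CPM across flox 3, LKO 2 and LKO 3, with a log2 fold change of 0.41 ± 0.15 (SE, adjusted p 0.554, edgeR) by the genotype field. Mbl1 had 0.34 ± 0.10 (SE, adjusted p 0.554, edgeR). Their proteases Masp1 and Masp2 had 0.08 and 0.10 there, and Masp2 shares 52.5% of its stretches with Tardbp on the other strand.

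C5ar1, the receptor of the C5a fragment on myeloid cells, had the lowest median FPKM of the 50 genes, at 0.640 to 5.08 FPKM. It was at 11.4, 7.24 and 5.74 CPM across flox 1, flox 2 and LKO 1, against 4.28, 1.63 and 3.67 CPM across flox 3, LKO 2 and LKO 3. Flox 1 was the highest and LKO 2 the lowest, and the groups were apart by the titles. Its log2 fold changes were -1.82 ± 0.45 (SE, adjusted p 0.142, edgeR) in the agreeing libraries and -1.36 ± 0.39 (SE, adjusted p 0.18, edgeR) by the titles, and it did not pass. Neutrophil markers were highest in flox 1, at 159 CPM, and second highest in LKO 2, at 69.9 CPM. Their part in the level of C5ar1 was not tested.

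All 18 complement genes were tested, and 0 passed by edgeR in any reading. The medians were 0.08 by the genotype field, 0.00 in the agreeing libraries and -0.03 by the titles. In the same order of readings, 2, 4 and 4 were under an unadjusted p of 0.05. Over all genes 1267 of 14310, 2430 of 14625 and 1989 of 14310 were. DESeq2 called 0, 1 and 2 of the 18, and limma-voom 0, 0 and 0. Groups were apart by the titles for 2 of 18 lower (C9 and C5ar1) and 2 higher (C1ra and Masp2), where 10.4% of all genes were lower and 8.61% higher. In the agreeing libraries they were apart for 2 lower and 7 higher, where 25.3% and 24.0% of all genes were, and by the genotype field for 0 lower and 3 higher (C3, Mbl1 and Mbl2), where 6.87% and 7.47% were. Over all 50 genes, all of which met the filter on low counts in each reading, edgeR called 0 by the genotype field, 1 in the agreeing libraries and 2 by the titles, each lower in LKO. These counts compare with 0%, 0.622% and 0.356% of all genes called in either direction. DESeq2 called 0, 12 and 11 of the 50, against 0.281%, 4.64% and 4.01% of all genes, and limma-voom 0, 1 and 1, against 0%, 0.301% and 0.168%.

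**Figure D3:**
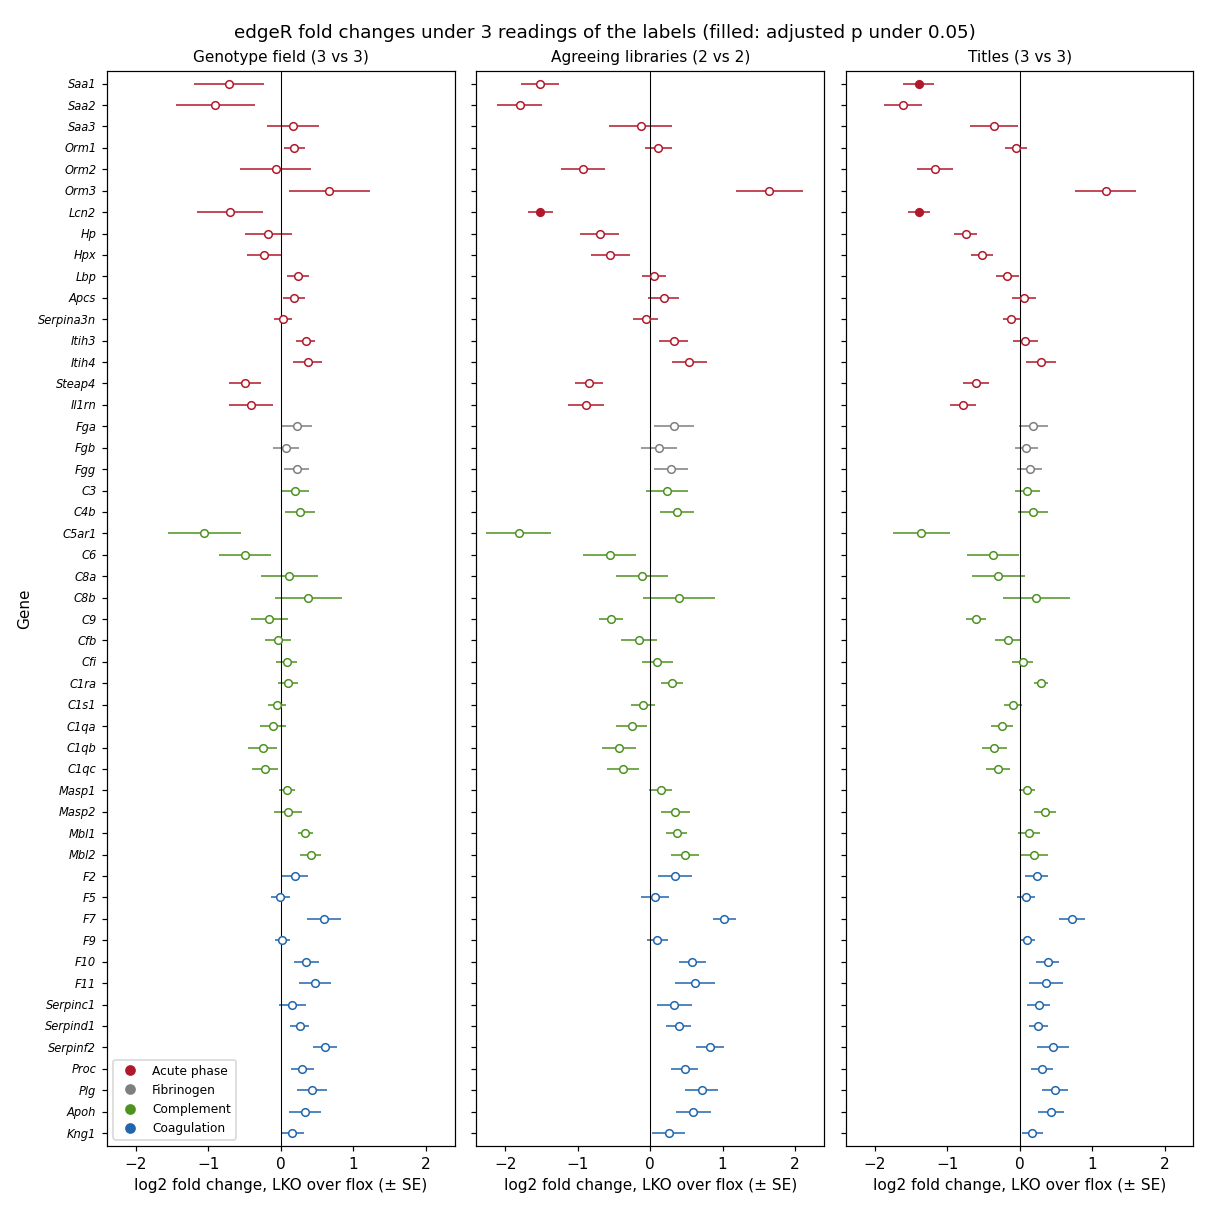
Log2 fold change of LKO over flox with its SE (x axis) for the 50 genes (y axis) under 3 readings of the labels, coloured by gene group, filled where edgeR's adjusted p is under 0.05. Lcn2 is filled in the agreeing libraries and by the titles, and Saa1 by the titles alone.

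**Figure D4:**
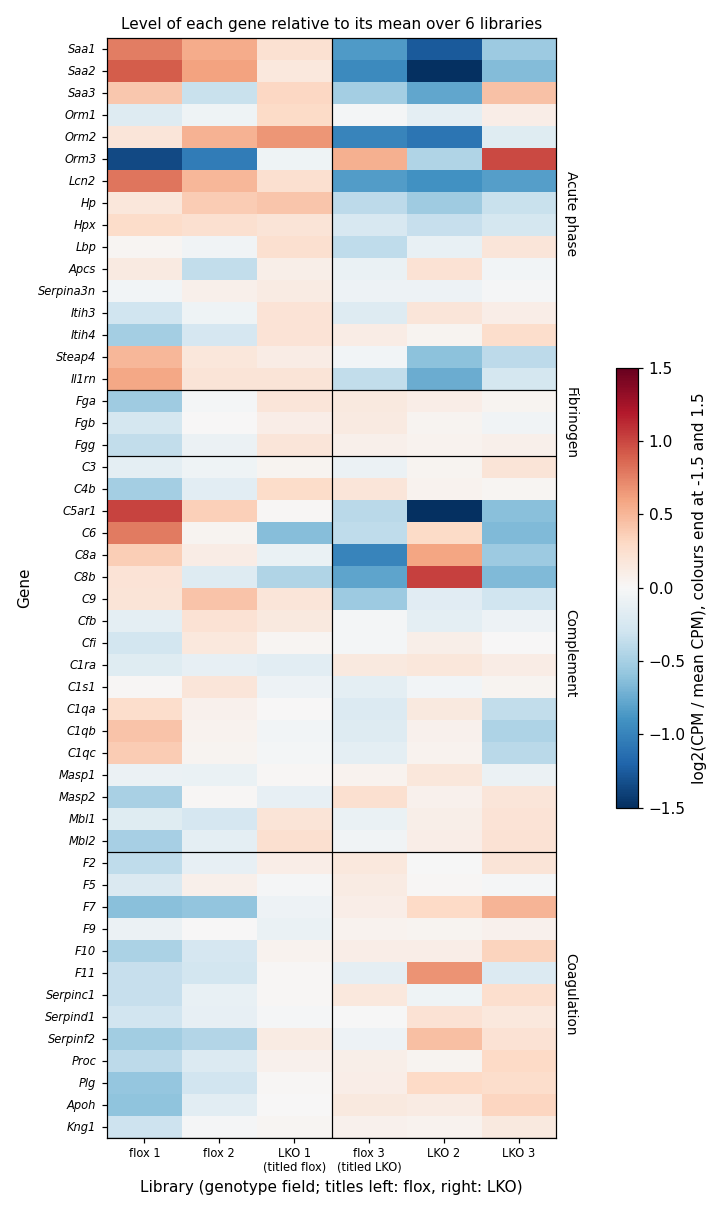
Colour gives log2 of CPM over the gene's mean of 6 libraries for the 50 genes (rows) in each library (columns, ordered by title). Saa1, Saa2, Lcn2, Hp and Hpx are red in the 3 left columns and blue in the 3 right ones, and C8a and C8b are red in LKO 2.

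Signalling genes upstream of the acute phase response were compared as well. Of 31 interleukin-6, interleukin-1 and STAT3 pathway genes, 29 were tested in the agreeing libraries and 0 passed by edgeR, with 4 called by DESeq2 and 0 by limma-voom. An unadjusted edgeR p under 0.05 was found for 6, and for 2430 of all 14625 genes. The median log2 fold change of the 29 was -0.06. Cebpd, a C/EBP factor induced in the acute phase, had the lowest p of the list there. It was at 31.1, 37.7 and 20.1 CPM across flox 1, flox 2 and LKO 1, against 18.1, 16.9 and 18.7 CPM across flox 3, LKO 2 and LKO 3. LKO 1 lay near the LKO libraries, unlike its Saa1 and Hp levels, and the log2 fold change of -0.95 ± 0.16 (SE, adjusted p 0.0654, edgeR) did not pass. Lifr, the leukaemia inhibitory factor receptor, had 0.92 ± 0.16 (SE, adjusted p 0.0796, edgeR).

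Other plasma protein genes were taken from lists outside the 50. Of 12 genes known to go down in the acute phase, 0 rose and 1 fell by the titles, with 10 of 12 above 0 and a median log2 fold change of 0.27. Over all genes tested, 0.0559% were called higher and 0.300% lower by the titles, and 50.7% were above 0. In the agreeing libraries and by the genotype field 0 of the 12 passed by edgeR. The gene that fell by the titles was Serpina7, encoding thyroxine-binding globulin. It was at 113, 135 and 92.7 CPM across flox 1, flox 2 and LKO 1, against 42.1, 27.5 and 46.3 CPM across flox 3, LKO 2 and LKO 3. Its log2 fold change was -1.56 ± 0.22 (SE, adjusted p 0.0438, edgeR) by the titles, and the call was lost in 5 of the 6 fits that left out 1 library. Of 21 further acute phase genes 0 passed by edgeR in any reading. By the titles 7 were under an unadjusted p of 0.05, as were 1989 of all 14310 genes, and DESeq2 called 4 and limma-voom 0. Serpina1c and Serpina1a, alpha-1-antitrypsin genes, had log2 fold changes of 1.43 ± 0.20 (SE, adjusted p 0.0563, edgeR) and 0.89 ± 0.21 (SE, adjusted p 0.131, edgeR) in the agreeing libraries, and these near-identical copies are uncertain.

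Of 30 further complement genes, 28 were tested in the agreeing libraries and 27 in each of the other readings. By edgeR 1 passed in the agreeing libraries and by the titles, and 0 by the genotype field. Over all genes, 0.130% were called higher in the agreeing libraries and 0.0559% by the titles. Fcna, encoding ficolin A, a lectin pathway starter made by macrophages, rose and was at 21.1, 23.0 and 28.8 CPM across flox 1, flox 2 and LKO 1, against 54.6, 63.4 and 59.4 CPM across flox 3, LKO 2 and LKO 3. All libraries titled LKO were above all titled flox. Among the 10 Kupffer cell and macrophage markers, only Cd163 passed in the agreeing libraries, where it rose. There 7 of the 10 had log2 fold changes above 0 and 3 below, among them Cd68 at -0.97 and Lyz2 at -1.04. The part of these markers in the level of Fcna was not tested. The log2 fold change of Fcna was 1.48 ± 0.13 (SE, adjusted p 0.0176, edgeR) in the agreeing libraries and 1.28 ± 0.14 (SE, adjusted p 0.0218, edgeR) by the titles, with the call lost without either flox library in the first and without flox 2, LKO 2 or LKO 3 in the second. Of 28 further coagulation genes 0 passed by edgeR in any reading. In the agreeing libraries 10 were under an unadjusted p of 0.05, as were 2430 of all 14625 genes, and DESeq2 called 2 and limma-voom 0. Klkb1, encoding plasma prekallikrein, had a log2 fold change of 0.69 ± 0.15 (SE, adjusted p 0.117, edgeR) there.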

How the data were processed

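The deposited table gives raw whole-number counts and FPKM for each gene in 6 libraries. The submitters' processing notes name fastp, HISAT, StringTie, Cufflinks and featureCounts, and GRCm39 as build. Tool versions, annotation and strandedness were not given in the sources used here. Among 7260 genes with 200 counts or more, the deposited FPKM were the count over a fixed gene length and the library total, within 0.036%. Groups follow the genotype field, with the titles as another reading. The labels do not say that libraries are separate mice, so p-values describe only how these samples spread, a spread that may be technical.

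The quasi-likelihood test of edgeR 4.0.16 in R 4.3.3 was run on all genes that met filterByExpr (at least 10 counts, 15 in total), scaled by TMM. P-values were adjusted over all of them by Benjamini-Hochberg, and 0.05 was the threshold. Hkdc1 stayed in every fit and is not among the genes counted. An SE is the absolute log2 fold change over the root of F, and CPM are TMM-scaled across the 6 libraries. The fit was tested on simulated data. Alternatives were library size alone (chosen after the data were seen), median-of-ratios and upper-quartile factors, scaling without the 50 genes, no low-count filter, DESeq2 1.42.0, limma-voom (limma 3.58.1) and leaving out each library. Shared stretches count each 50-base word of a gene's GENCODE M21 transcripts that also occurs in another gene's, on either strand. Libraries differed beyond sampling noise, with a chi-square per gene of at least 16.0.

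The members and lists were chosen with earlier results of these data known. Named genes were the 50, Hkdc1, and from each other list those that passed in any reading, or else the 2 of lowest p in the agreeing libraries. An item that this rule names is not reported here. Of the list entries, Gp1bb did not match. Marker lists (hepatocyte, Kupffer cell and macrophage, neutrophil, platelet, stellate cell, sinusoidal endothelium, cholangiocyte, adrenal cortex and adipocyte) were summed as CPM. Promoters came from RefSeq tables.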

Additional observations from a re-analysis of the deposited data

How the results depend on the processing

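Over all genes, the agreeing libraries gave 91 calls, and 57 with upper-quartile factors, 1108 with no filter on low counts, 722 by DESeq2 and 44 by limma-voom, and 0 to 759 without 1 library (0 when flox 1 was left out, 50 for flox 2, 759 for LKO 2 and 629 for LKO 3). The titles gave 51, and 247 with no filter, 621 by DESeq2, 24 by limma-voom and 0 to 238 without 1 library (20 when flox 1 was left out, 0 for flox 2, 29 for flox 3, 238 for LKO 1, 4 for LKO 2 and 1 for LKO 3). The genotype field gave 0, and 41 by DESeq2. Among the 50 genes, the agreeing libraries called 1, and 10 with no filter, 12 by DESeq2 and 0 to 9 without 1 library. The titles called 2, and 4 with no filter, 11 by DESeq2, 1 by limma-voom and 0 to 4 without 1 library. Where a group kept 1 library, that library was assumed to vary like the other group. The Saa1 call by the titles was also lost with library size alone (-1.52) and with limma-voom (-1.40).

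The LKO minus flox difference in the share of counts held by the 50 genes was 0.169 percentage points by the genotype field, -0.135 in the agreeing libraries and -0.35 by the titles. As a share of FPKM it was -0.205, -0.851 and -0.929, with the sign reversed in the first reading. Of 350 fold changes of the 50 genes under other settings in each reading, 3, 5 and 5 changed sign by the genotype field, in the agreeing libraries and by the titles. With library size alone these were Serpina3n (-0.0491) and F9 (-0.055) by the genotype field, Orm1 (-0.0256), Lbp (-0.0896), Cfi (-0.0228), F5 (-0.0622) and F9 (-0.0358) in the agreeing libraries, and Apcs (-0.0441), Itih3 (-0.00896), Fgb (-0.00167), Cfi (-0.0459) and F5 (-0.00785) by the titles. With DESeq2 it was F5 by the genotype field (0.00223). None of these passed. Without 1 library, signs changed by the genotype field for Saa3 (-0.0402 to 0.505), Orm2 (-0.6 to 0.269), Hp (-0.508 to 0.00955), Serpina3n (-0.0293 to 0.0772), Fgb (-0.0292 to 0.162), C8a (-0.238 to 0.406), C8b (-0.345 to 0.673), C9 (-0.392 to 0.0354), Cfb (-0.128 to 0.0613), Cfi (-0.0162 to 0.182), C1s1 (-0.126 to 0.0253), C1qa (-0.219 to 0.0286), Masp2 (-0.0788 to 0.269), F5 (-0.102 to 0.0603) and F9 (-0.0141 to 0.0688). They changed in the agreeing libraries for Saa3 (-0.855 to 0.357), Orm1 (-0.0191 to 0.239), Lbp (-0.0932 to 0.197), Apcs (-0.0573 to 0.461), Fgb (-0.0044 to 0.255), C8a (-0.781 to 0.347), C8b (-0.669 to 1.01), Cfb (-0.325 to 0.028), Cfi (-0.105 to 0.317) and F5 (-0.0804 to 0.207). By the titles they changed for Orm1 (-0.139 to 0.105), Apcs (-0.0909 to 0.161), Itih3 (-0.0299 to 0.216), Fgb (-0.00133 to 0.171), C6 (-0.691 to 0.0761), C8b (-0.605 to 0.536) and Cfi (-0.0615 to 0.132). Lcn2, Saa1, Saa2 and Hpx kept a negative sign in every fit run. No paired analysis was possible because the labels give the groups no shared replicate numbers. The cause of these changes was not tested. A count of 3, the floor, equals 0.173 to 0.186 CPM, and intervals cover counting error only.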

Other observations

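Adipsin, the complement factor D gene Cfd, named after seeing its values, reached 28.2 CPM in LKO 2, 3.61 CPM in LKO 3 and at most 0.415 CPM in the other libraries. Fat cells are its main source in mice, and 6 adipocyte markers summed to 106 CPM in LKO 2, 21.1 in LKO 3 and 5.88 to 11.2 in the rest. The part of these markers in the level of Cfd was not tested. The collectin gene Colec10, a lectin pathway starter chosen in the same way, was at 11.7, 19.0 and 24.2 CPM across flox 1, flox 2 and LKO 1, against 47.8, 42.7 and 36.9 CPM across flox 3, LKO 2 and LKO 3. Its groups were apart by the titles, and its log2 fold change of 1.22 ± 0.24 (SE, adjusted p 0.0932, edgeR) did not pass. Platelet markers (5 genes) summed to 8.10 to 19.8 CPM and sinusoidal endothelial markers (8 genes) to 385 to 532 CPM.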
